A study of Mus musculus with 24 samples.

Results

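The S100 calcium-binding proteins and annexins described here were 10 genes of 47643 in the count files, 8 S100 genes (S100a1, S100a4, S100a6, S100a10, S100a11, S100a13, S100a16 and S100b) and 2 annexin genes (Anxa1 and Anxa2). They were chosen by a rule written with results of the same genotype comparison in view, so their differences between genotypes are given as a description, without a test, and support nothing on their own. All 10 genes passed the filter on low counts. RNA was measured in GFP-positive neurons sorted from L4 dorsal root ganglia (DRG), the ganglia that hold the cell bodies of somatosensory neurons. All mice carried Nav1.8-Cre, which is active in neurons that express this sodium channel, and the fluorescent reporter Rosa26-ZsGreen. At the Tsc2 locus control mice were flox/+ and Nav-Tsc2 mice flox/null, so that controls also lose 1 allele where Cre acts and Nav-Tsc2 mice carry a null allele in all of their cells. Tsc2 encodes a negative regulator of the mTORC1 kinase, and because this Cre driver is not limited to nociceptors, the sorted cells can include neurons with myelinated axons. All mice were 8 to 9 weeks old, of mixed C57BL/6 and AJ background, and the ganglia were taken from the side opposite a sciatic nerve crush, 3 d after it, so that no uncrushed animal was compared. Each genotype had 4 mice, replicates 1 and 2 male and replicates 3 and 4 female, with 3 libraries of 100 cells from each mouse.

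S100 proteins are small EF-hand proteins that mostly act as dimers, and on binding calcium they expose a surface for partner proteins. Annexins bind phospholipid membranes in a calcium-dependent manner, and several annexins pair with an S100 protein. In sensory neurons the best known pair is S100a10 with Anxa2, a complex that carries ion channels and receptors, among them Nav1.8, to the plasma membrane. S100a10 is unusual in that it no longer binds calcium itself. S100b is widely used as a marker of glia and is also present in sensory neurons with large cell bodies.

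Of the 10 genes, 7 lie in the S100 gene cluster on chromosome 3, whose 14 annotated S100 genes run from chr3:90511034-93564643 (GRCm38). S100b lies apart at chr10:76253853-76261159 on the plus strand, Anxa2 at chr9:69453620-69491795 on the plus strand and Anxa1 at chr19:20373428-20390944 on the minus strand. RefSeq windows from 250 bases before to 50 bases after the gene start (GRCm38.p6) were found for 9 of the 10 genes. They were searched on both strands for 4 motifs, the E-box bound by TFE and MYC family factors (CACGTG), the AP-1 motif of Jun and Fos factors (TGANTCA), the cyclic AMP response element (TGACGTCA) and a TATA box (TATAAA). Of all 32851 windows, 7.15% held the E-box, 7.81% the AP-1 motif, 1.79% the cyclic AMP response element and 13.6% the TATA box. Of the 9 genes with a window, 2 held an E-box, 3 an AP-1 motif, 0 a cyclic AMP response element and 3 a TATA box. A gene was counted for a match in any of its windows, whereas the shares of all windows are per window, so the 2 are not directly comparable. A match is a run of letters and no evidence of binding. The upstream sequences below are those of the 2 genes called lower in Nav-Tsc2 mice, of S100a11, which was higher and held the most matches, and of Anxa2, whose level lay close together in both genotypes. Each is printed 5′ to 3′ on the strand of its gene, without annotated exon bases, with motif matches in capitals.
S100b, chr10:76253586-76253835, plus strand: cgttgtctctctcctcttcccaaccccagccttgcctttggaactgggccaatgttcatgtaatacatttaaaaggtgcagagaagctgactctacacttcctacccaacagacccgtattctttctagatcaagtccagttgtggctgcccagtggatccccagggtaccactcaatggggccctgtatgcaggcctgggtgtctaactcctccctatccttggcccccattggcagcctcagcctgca
S100a16, chr3:90537004-90537253, plus strand: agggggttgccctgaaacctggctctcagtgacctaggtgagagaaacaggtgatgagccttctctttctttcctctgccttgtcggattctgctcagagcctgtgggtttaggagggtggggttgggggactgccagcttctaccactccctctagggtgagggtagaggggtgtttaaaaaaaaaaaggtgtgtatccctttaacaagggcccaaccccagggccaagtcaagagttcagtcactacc
S100a11, chr3:93520246-93520487, plus strand: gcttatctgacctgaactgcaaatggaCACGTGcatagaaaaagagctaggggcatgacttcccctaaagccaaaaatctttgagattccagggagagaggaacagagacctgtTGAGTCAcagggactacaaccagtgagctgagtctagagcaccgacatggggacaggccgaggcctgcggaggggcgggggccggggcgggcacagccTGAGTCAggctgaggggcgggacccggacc
Anxa2, chr9:69453433-69453619, plus strand: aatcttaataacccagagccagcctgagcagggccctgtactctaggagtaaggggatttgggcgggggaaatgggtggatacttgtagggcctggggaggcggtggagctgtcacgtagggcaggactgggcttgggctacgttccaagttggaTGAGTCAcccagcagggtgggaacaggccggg
The windows of S100b and the first S100a16 start held none of the 4 motifs. In S100a11 the E-box began at position -223 from the RefSeq start and AP-1 motifs at -136 and -38. The Anxa2 sequence held an AP-1 motif at -95, and a TATA match at -17 lay in annotated exon sequence and is not printed. Outside the printed windows, a TATA match stood at -32 in Anxa1 and at -31 in S100a4, an E-box at 14 in S100a6, and an AP-1 motif at -192 of the second S100a16 start. S100a1 and S100a13 are neighbours on opposite strands. Their annotated starts are separated by 42 bases without exons, shown because this one stretch lies between a gene that was higher in Nav-Tsc2 mice and one that was not called.
S100a1 to S100a13, chr3:90514393-90514434, plus strand: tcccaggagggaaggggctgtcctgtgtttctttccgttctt

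Libraries held between 8339220 and 34228180 counts on genes, and each mouse between 47959617 and 61290435 counts after summing. Values are CPM, counts scaled to library size, after TMM scaling, with the mouse as the replicate. A gene was called when edgeR's quasi-likelihood test gave a Benjamini-Hochberg adjusted p under 0.05 over the 17178 genes tested and its log2 fold change lay over 0.5 or under -0.5. The deleted gene, Tsc2, fell by 1.24 on the log2 scale in Nav-Tsc2 mice (SE 0.22, adjusted p = 0.004), and no Nav-Tsc2 mouse (7.3 to 11 CPM) reached the lowest control mouse (13.4 CPM). Neuronal markers of the labelled cell type, led by Tubb3 and Uchl1, were abundant in all mice. The 8 genes summed to 10903 to 12602 CPM in control and 13556 to 16242 CPM in Nav-Tsc2 mice, so that the genotypes did not overlap, with Prph called higher and Isl1 lower. In sorted bulk samples, fewer cells of a type and less RNA per cell cannot be told apart.

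Different genes were compared per kilobase of exon, with all annotated exons of a gene merged. The order of genes thus depends on the annotation. On this scale Anxa2 had the highest mean level of the 10 genes in control neurons, with 887 ± 83.1 CPM per kb (SD, n = 4 mice). S100a10 followed with 772 ± 49.4, S100a6 with 738 ± 51 and S100b with 633 ± 112 CPM per kb (SD, n = 4 mice each). Each of these 4 genes overlapped its neighbour in the order over the 4 control mice. S100a13 stood clear of the genes above and below it at 258 ± 36 CPM per kb. S100a11, S100a16 and S100a1 formed a lower and overlapping group, from 84.9 down to 56 CPM per kb. S100a4 and Anxa1 were lowest, with 3.28 and 0.912 CPM per kb. In Nav-Tsc2 neurons the order was different. S100a6 was highest at 1049 ± 39.6 CPM per kb and did not overlap Anxa2 (880 ± 11.2), S100b dropped to the seventh place at 66.4 ± 48 and Anxa1 reached 16.6 ± 10.6 CPM per kb, overlapping both S100b and S100a16.

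In the genotype comparison, 2 of the 10 genes were called lower in Nav-Tsc2 mice, beside 8.00% of all genes tested, and 4 were called higher, beside 9.12%. The levels of the 4 control and 4 Nav-Tsc2 mice did not overlap for 6 of the 10 genes, beside 26.9% of all genes tested. The median log2 fold change was 0.20 over the 10 genes and 0.01 over all genes. Because the genes were chosen with these results known, nothing is read from these shares.

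**Figure D1:**
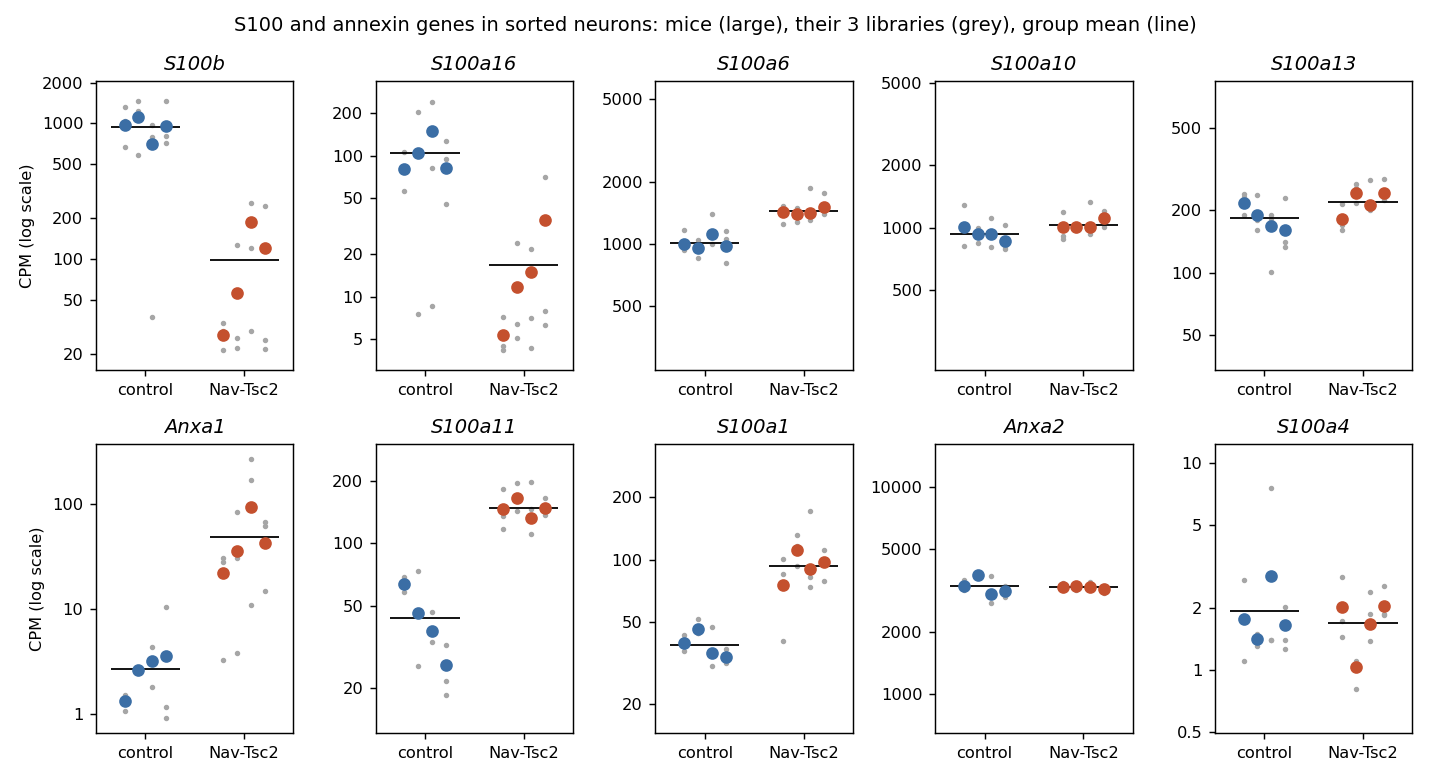
Levels of the 10 genes in control and Nav-Tsc2 mice, in CPM on a log axis. Large points are mice, grey points the 3 libraries of each mouse and lines the mean of 4 mice; S100b and S100a16 are lower and Anxa1, S100a11, S100a1 and S100a6 higher in all 4 Nav-Tsc2 mice, while Anxa2 has means of 3310 and 3283 CPM.

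S100b had 971, 1112, 712 and 961 CPM in control replicates 1 to 4 and 27.9, 56.6, 188 and 122 CPM in Nav-Tsc2 replicates 1 to 4. All 4 Nav-Tsc2 mice were thus far below the lowest control mouse. The means were 939 ± 166 and 98.6 ± 71.2 CPM (SD, n = 4 mice), a log2 fold change of -3.25 (SE 0.51). Among the single libraries, 8 of the 12 Nav-Tsc2 libraries had 21.4 to 33.9 CPM and the other 4 had 122 to 258 CPM, with no value between. In controls, library A of replicate 3 had 37.9 CPM against 588 to 1466 CPM in the other 11 libraries. Without that library the log2 fold change was -3.34.

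S100a16, a widely expressed S100 protein, had 80.8, 104, 150 and 81.3 CPM in control and 5.39, 11.7, 15.1 and 35 CPM in Nav-Tsc2 replicates 1 to 4. The highest Nav-Tsc2 mouse stayed below the lowest control mouse. The means were 104 ± 32.6 and 16.8 ± 12.8 CPM (SD, n = 4 mice), a log2 fold change of -2.63 (SE 0.50). Single libraries again lay far apart. In controls 2 libraries, A of replicate 2 and A of replicate 3, had 7.52 and 8.67 CPM against 45.2 to 242 CPM in the other 10. In Nav-Tsc2 mice 1 library, B of replicate 4, had 70.4 CPM and the other 11 had 4.22 to 24.1 CPM. Library A of control replicate 3 was low for both S100b and S100a16, whereas library A of control replicate 2 was low for S100a16 with 588 CPM of S100b.

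The summed level of 6 peptidergic genes, led by Calca and Calcb, ranged from 9619 to 19558 CPM in control and from 4310 to 7104 CPM in Nav-Tsc2 mice, and none of the 6 was at 0. Of them, 2 were called lower, among them Calca. The summed level of 6 nonpeptidergic genes, led by Ret and Mrgprd, ranged from 339 to 1363 CPM in control and from 1511 to 1648 CPM in Nav-Tsc2 mice. Of these 6, edgeR called 0 in either direction, with 1, Mrgprd, at an unadjusted p under 0.05 (log2 fold change 1.76, SE 0.67, adjusted p = 0.0935). The control library with the low S100b value, A of replicate 3, had the lowest peptidergic sum of the 12 control libraries (6334 CPM) and the highest nonpeptidergic sum (2199 CPM). The other control library with low S100a16, A of replicate 2, went the other way, with a peptidergic sum of 18500 CPM and the lowest nonpeptidergic sum of the 12 (199 CPM). Libraries A and B of control replicate 4 had peptidergic sums of 8459 and 8172 CPM, with 1461 and 717 CPM of S100b. Peptidergic sums of the Nav-Tsc2 libraries ran from 3349 to 8510 CPM. Whether the mix of neuron types had a part in the lower S100b and S100a16 was not tested. The genes of low-threshold C fibers, led by Th and Gfra2, summed to 55 to 315 CPM in control and 277 to 1504 CPM in Nav-Tsc2 mice, and Th was called higher. The 7 myelinated-neuron genes, led by Nefl and Nefm, summed to 3061 to 4607 CPM in control and 2477 to 3652 CPM in Nav-Tsc2 mice. Of these 7, edgeR called 0 in either direction, with 1 at an unadjusted p under 0.05. The summed level of 14 glial genes, led by Pmp22, was 1894 to 2382 CPM in control and 1962 to 2385 CPM in Nav-Tsc2 mice, so that the genotypes overlapped, and edgeR called 0 of the 14 in either direction, with 2 at an unadjusted p under 0.05. These went in opposite directions, the astrocyte and satellite cell gene Gfap with a log2 fold change of 3.81 (SE 1.43) and the myelin gene Mbp with -0.50 (SE 0.18), and DESeq2 called 1 of the 14, Mbp, lower.

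**Figure D2:**
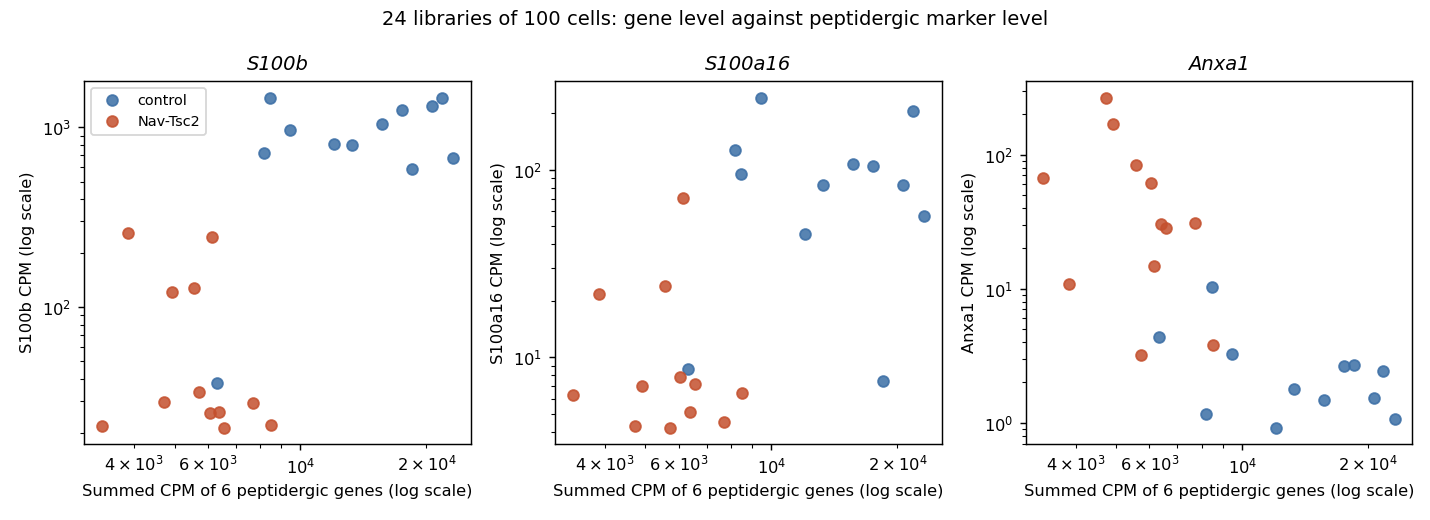
S100b, S100a16 and Anxa1 in each of the 24 libraries against the summed level of 6 peptidergic genes, both in CPM on log axes, with control in blue and Nav-Tsc2 in red. For S100b, the single low control library (37.9 CPM) lies at 6334 CPM of peptidergic genes, among the Nav-Tsc2 libraries. Libraries A and B of control replicate 4 also lie in that range, at 8459 and 8172 CPM, with 1461 and 717 CPM of S100b.

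Anxa1, an annexin that restrains inflammatory signaling through formyl peptide receptors, had 1.32, 2.61, 3.17 and 3.51 CPM in control and 21.9, 35.8, 92.8 and 42.6 CPM in Nav-Tsc2 replicates 1 to 4. Every Nav-Tsc2 mouse was above every control mouse. The means were 2.65 ± 0.962 and 48.3 ± 30.9 CPM (SD, n = 4 mice), a log2 fold change of 4.19 (SE 0.49). Single libraries overlapped between genotypes, since library A of control replicate 4 had 10.3 CPM and 2 Nav-Tsc2 libraries had 3.22 and 3.79 CPM. When the 24 libraries were fitted singly with a random mouse effect, Anxa1 had a log2 fold change of 3.58 and was not called.

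S100a11, which can bind Anxa1, had 63.8, 46.1, 37.7 and 25.8 CPM in control and 146, 165, 133 and 149 CPM in Nav-Tsc2 replicates 1 to 4. It was the one gene of the 10 for which all 12 Nav-Tsc2 libraries (111 to 198 CPM) lay above all 12 control libraries (18.6 to 73.6 CPM). The means were 43.4 ± 16 and 148 ± 12.8 CPM (SD, n = 4 mice), a log2 fold change of 1.77 (SE 0.24). A processed pseudogene, S100a11-ps, shares sequence with this gene, so reads that fit both places equally are missing from its counts.

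S100a1, known for its action on calcium release channels in muscle, had 39.5, 46.4, 35.5 and 34 CPM in control and 75.1, 111, 89.7 and 97.7 CPM in Nav-Tsc2 replicates 1 to 4. The mice of the genotypes did not overlap, and 11 of 12 Nav-Tsc2 libraries exceeded the highest control library. The log2 fold change was 1.27 (SE 0.14). Its neighbour on the opposite strand, S100a13, had means of 184 ± 25.8 and 220 ± 28.9 CPM (SD, n = 4 mice), and its mice overlapped between genotypes, with a log2 fold change of 0.26 (SE 0.13) and no call. The kit is not stated to mark strand, but the exons of the 2 genes do not overlap in the annotation.

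S100a6, a partner of the Siah-interacting protein Cacybp, had 995, 958, 1111 and 972 CPM in control and 1421, 1387, 1415 and 1512 CPM in Nav-Tsc2 replicates 1 to 4. The difference was small and even, with a log2 fold change of 0.51 (SE 0.07), just past the limit of 0.5. The call was lost with DESeq2 or its size factors (0.49 each) and without Nav-Tsc2 replicate 4 or control replicates 1, 2 or 4 (0.48 to 0.50), in each case because the fold change no longer passed 0.5.

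Neither gene of the S100a10 and Anxa2 pair was called. S100a10 had 1009, 936, 936 and 863 CPM in control and 1002, 1011, 1008 and 1118 CPM in Nav-Tsc2 replicates 1 to 4, a log2 fold change of 0.15 (SE 0.08). Anxa2 had 3315, 3745, 3047 and 3135 CPM in control and 3286, 3318, 3305 and 3224 CPM in Nav-Tsc2 replicates 1 to 4, a log2 fold change of -0.01 (SE 0.08). For both genes the mice of the genotypes overlapped, and no alternative called either. S100a4, a metastasis-associated S100 protein that binds nonmuscle myosin, was low, with 12 to 98 counts in each of the 24 libraries, and had 1.92 ± 0.631 CPM in control and 1.69 ± 0.475 CPM in Nav-Tsc2 mice (SD, n = 4 mice), a log2 fold change of -0.18 (SE 0.40). Exons of the gene model Gm42674 cover 51.7% of the S100a4 exon bases, so part of its reads could have been left out by the counting.

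The genes also differed in how far the 3 libraries of a mouse lay apart. The SD of log2(CPM + 1) within mice was 1.50 for S100a16, 1.45 for Anxa1 and 1.41 for S100b, against 0.10 for Anxa2, 0.20 for S100a6 and 0.22 for S100a10. The remaining 4 genes lay between 0.30 and 0.44. After subtracting the mean of each mouse, S100b and S100a16 followed each other across the 24 libraries (Pearson r = 0.84), the highest of the 36 pairs that 9 of the genes form, whose median was 0.20. The lowest was -0.49, between S100a6 and S100a16. S100a10 followed Anxa2 with r = 0.46 and S100a13 with r = 0.69. These are descriptions, since the 24 libraries come from 8 mice. Library depth differed, from 8339220 to 34228180 counts on genes, and its part in these correlations was not tested.

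Among 8445 genes with a mean of at least 10 CPM, those whose deviations were most like S100b were Cgnl1, Nptx1 and Chp2 (r = 0.93, 0.93 and 0.92). For S100a16 they were the sodium channel regulator Fgf12, Fam19a1 and the synaptic vesicle release regulator Cplx2 (r = 0.94, 0.93 and 0.92). The peptidergic gene Calca followed S100b with r = 0.68 and S100a16 with r = 0.54. S100a13 was most like the tubulin gene Tuba1b and the respiratory chain genes Cox4i1 and Atp5g1 (r = 0.92, 0.92 and 0.91). S100a10 was most like Myl6, Ppia and Sh3bgrl3 (r = 0.88, 0.86 and 0.86), and S100a6 like mt-Tp, Pabpc1 and mt-Co1 (r = 0.88, 0.84 and 0.83). S100a11 stood nearest to Afap1, Zcchc7 and Them4 (r = 0.82, 0.81 and 0.80), S100a1 to Mpc1, Rpl13a and Rnf19b (r = 0.76, 0.76 and 0.73), Anxa2 to Fnip1, Tpd52l2 and Anapc16 (r = 0.77, 0.77 and 0.74), and Anxa1 to Ndufb4, Rps15a and Lgi3 (r = 0.70, 0.67 and 0.66).

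Sex was not used to choose the genes and was tested with genotype in the model. No gene of the 10 was called different between the sexes, beside 0.0291% of all genes tested. The log2 differences of females over males ran from -0.46 for S100a11 to 1.01 for Anxa1, 3 of the 10 had an unadjusted p under 0.05 and the smallest adjusted p was 0.694 (edgeR), and DESeq2 called 0. Without the filter on low counts, the same test called 3 of the 10, S100a16, S100b and Anxa1. S100a16 and Anxa1 had higher means in females of both genotypes, S100b only among Nav-Tsc2 mice. The share of all genes at an unadjusted p under 0.05, or called without this filter, is not given here. Neither count of 3 can thus be set beside the 0.0291%. No gene of the 10 had a different genotype effect in the 2 sexes at an adjusted p under 0.05, beside 0.00582% of all genes tested, with 1 of the 10 at an unadjusted p under 0.05. That gene was S100b, whose mean was 1041 CPM in control males and 837 in control females but 42.3 in Nav-Tsc2 males and 155 in Nav-Tsc2 females (n = 2 mice each). The interaction was 2.19 on the log2 scale (SE 0.48, adjusted p = 0.242 with edgeR), and it passed the threshold with DESeq2 and without the filter on low counts, where S100a16 also passed. Shares of all genes for the unadjusted p and for these alternatives are not given here either.

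Beyond the 10 genes, 19 other S100 and annexin genes were annotated, of which 13 passed the filter on low counts. In Nav-Tsc2 mice 0 were called lower with edgeR or DESeq2, with 0 lower at an unadjusted p under 0.05, and 4 were called higher (30.8% of the 13, beside 9.12% of all genes tested). Anxa3 rose from 0.339, 1.04, 0.796 and 0.261 CPM in control to 67.8, 66.6, 127 and 83.2 CPM in Nav-Tsc2 replicates 1 to 4, a log2 fold change of 7.14 (SE 0.45, adjusted p = 2.24e-05). All 12 Nav-Tsc2 libraries had at least 39.1 CPM of Anxa3 and no control library exceeded 2.03 CPM. S100a8, best known as a neutrophil protein, rose from at most 0.341 CPM to between 2.15 and 5.29 CPM (log2 fold change 4.38, SE 0.76, adjusted p = 0.0035). Its usual partner S100a9 had 0 counts in all 24 libraries. Counting error alone allows up to 0.00678 CPM over the series, and RNA lost before sequencing is outside this limit. The neutrophil gene Retnlg was also at 0. The 4 mast cell and neutrophil genes, led by Camp and Cpa3, summed to 0.542 to 2.35 CPM in control and 0.885 to 1.62 CPM in Nav-Tsc2 mice. Camp, a neutrophil granule gene, had 0 to 1 CPM in control and 0.329 to 1.57 CPM in Nav-Tsc2 mice (log2 fold change 1.54, SE 1.11, adjusted p = 0.374), and the part of neutrophils in the S100a8 difference was not tested. S100a3 rose by 3.38 on the log2 scale (SE 0.61, adjusted p = 0.00423) and S100g, the calcium carrier calbindin-D9k, by 2.57 (SE 0.49, adjusted p = 0.00579), both from means near 1 CPM (1.29 and 0.725 CPM). The 2 most abundant others were Anxa5, with means of 4196 ± 303 and 5146 ± 228 CPM (SD, n = 4 mice; log2 fold change 0.29, adjusted p = 0.0202, not past 0.5), and Anxa6, with 703 ± 27.2 and 714 ± 10.3 CPM (log2 fold change 0.02, SE 0.06).

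Summed endothelial and macrophage genes also differed at low level in the same direction as Anxa1, Anxa3 and S100a8. Fibroblast sums overlapped between genotypes and red blood cell sums were lower in Nav-Tsc2 mice. The summed level of 6 endothelial genes, led by Flt1 and Ly6c1, was 0.326 to 1.85 CPM in control and 7.73 to 20.1 CPM in Nav-Tsc2 mice. Only 3 of the 6 passed the filter on low counts, and all 3 were called higher, beside 9.12% of all genes tested. The defining genes Pecam1, Cdh5 and Cldn5 did not pass it and had no more than 1.59 CPM in any mouse. Pecam1 had means of 0.422 CPM in control and 0.315 CPM in Nav-Tsc2 mice. The 6 macrophage genes, led by Cx3cr1 and Csf1r, summed to 1.77 to 6.33 CPM and 7.76 to 19.4 CPM. Of the 5 macrophage genes that passed the filter, 1 was called higher, and C1qa, which did not pass, had no more than 0.0846 CPM in any mouse. C1qb went the other way, from a mean of 1.75 to 0.574 CPM (log2 fold change -1.60, SE 1.38, not called). Aif1 had a log2 fold change of 0.34 (SE 0.87) and was not called. Fibroblast genes, led by Dcn and Col1a2, summed to 73.1 to 236 CPM and 121 to 196 CPM. Red blood cell genes summed to 1.18 to 1.66 CPM and 0.144 to 0.389 CPM. The part of these cell types in the higher annexin and S100 levels was not tested.

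**Figure D3:**
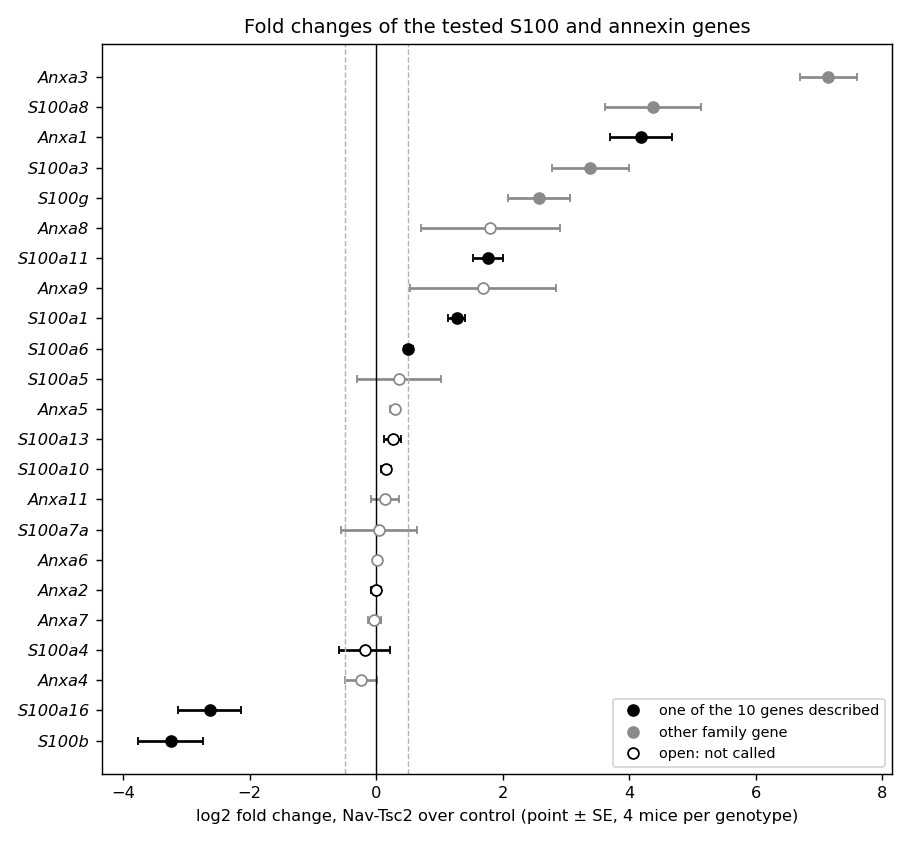
Log2 fold changes of Nav-Tsc2 over control for the 23 tested S100 and annexin genes, with the SE from 8 mice; black points are the 10 genes described and grey points other family genes, filled where called. The points run from S100b (-3.25) to Anxa3 (7.14), and the abundant annexins Anxa2 (-0.01) and Anxa6 (0.02) lie near 0.

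The partners of these proteins were taken from a list of 36 binding partners, cargo proteins and receptors, of which 32 passed the filter. Of these, 5 fell (15.6%, beside 8.00% of all genes tested) and 4 rose (12.5%, beside 9.12%), and their median difference was 0.04 on the log2 scale. The list was chosen with earlier results of these data known, so nothing is read from these shares. Channels and receptors that the S100a10 and Anxa2 complex is known to bring to the membrane differed among themselves. Scn10a, which encodes Nav1.8, had means of 670 ± 138 and 608 ± 35.1 CPM (SD, n = 4 mice; log2 fold change -0.14, SE 0.14, adjusted p = 0.526). The acid-sensing channel gene Asic1 fell by 2.10 (SE 0.30, adjusted p = 0.00126) and the serotonin receptor genes Htr1b and Htr1d by 3.14 (SE 0.32, adjusted p = 0.000249) and 1.91 (SE 0.35, adjusted p = 0.00453) on the log2 scale. Htr1b had 66.3, 49, 36.4 and 31.5 CPM in control and 4.92, 6.63, 2.87 and 6.35 CPM in Nav-Tsc2 replicates 1 to 4. The call for Htr1d was lost when the 24 libraries were fitted singly with a random mouse effect. The channel gene Kcnk3 and the serotonin receptor gene Htr4, also on the list, were not called. Their log2 fold changes were 0.16 (SE 0.69, adjusted p = 0.904) and 0.28 (SE 0.49, adjusted p = 0.744). Trpa1, an irritant-gated channel regulated by the same complex, had a log2 fold change of -0.43 (SE 0.20, adjusted p = 0.167) and was called without control replicate 2 (-0.61), with adjusted p between 0.0099 and 0.326 over its alternatives.

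Ahnak, the scaffold that binds S100a10 with Anxa2, rose by 0.67 (SE 0.17, adjusted p = 0.0205) on the log2 scale, and this call was lost without any one of 5 mice (control replicates 1, 2 or 4, Nav-Tsc2 replicates 1 or 2). The adjusted p over its alternatives ran from 0.00086 to 0.063. Proteases linked to the complex rose, Plat, tissue plasminogen activator, by 0.96 (SE 0.22, adjusted p = 0.0135) and Ctsb, cathepsin B, by 1.21 (SE 0.07, adjusted p = 2.12e-05). Dlc1, a GTPase-activating protein that binds S100a10, fell by 1.81 (SE 0.19, adjusted p = 0.0003). Fgf1, the growth factor released together with S100a13, fell by 1.77 (SE 0.16, adjusted p = 0.000141), from 330 to 475 CPM in control mice to 98.6 to 156 CPM in Nav-Tsc2 mice, while S100a13 itself was not called. Mdm2, the p53 ubiquitin ligase that binds S100 proteins, rose by 1.05 (SE 0.12, adjusted p = 0.000368). The receptors of Anxa1, Fpr1, Fpr2 and Fpr3, had 6, 46 and 1 counts in all libraries together and were not tested.

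Other calcium sensors, a list of 30 genes of which 28 passed the filter, held 9 that fell (32.1%, beside 8.00% of all genes tested) and 1 that rose (3.57%, beside 9.12%), and the median of the list was -0.36 on the log2 scale. Because this list too was chosen with earlier results of these data known, nothing is read from its shares. The 3 lower genes with the smallest p were Ncald, which fell by 0.92 (SE 0.12, adjusted p = 0.000665), Ncs1, which fell by 0.74 (SE 0.10, adjusted p = 0.00098), and Chp1, which fell by 0.51 (SE 0.08, adjusted p = 0.00165). Ncald and Ncs1 are neuronal calcium sensors of the recoverin type and Chp1 is a calcineurin-like cofactor of sodium-proton exchangers. The call for Chp1 was lost without control replicate 2 or Nav-Tsc2 replicate 1, where its fold change no longer passed -0.5. The 1 called higher was Hpcal4, from a mean of 0.388 to 6.21 CPM (log2 fold change 3.99, SE 0.73, adjusted p = 0.00453).

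**Figure D4:**
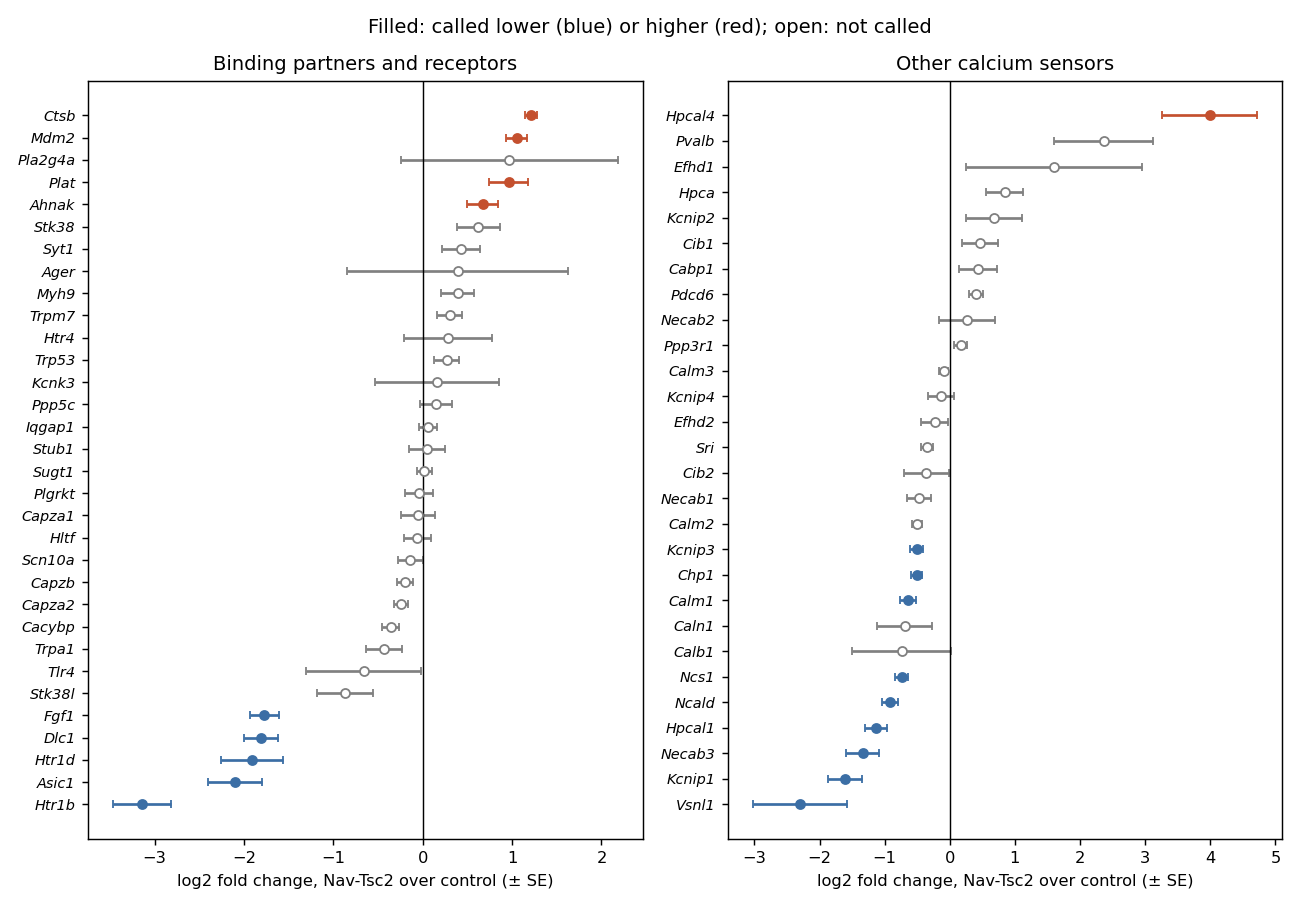
Log2 fold changes of Nav-Tsc2 over control, with SE from 8 mice, for 32 partners and receptors (left) and 28 other calcium sensors (right); filled points were called lower (blue) or higher (red). Partners run from Htr1b (-3.14) to Ctsb (1.21) and sensors from Vsnl1 (-2.30) to Hpcal4 (3.99), with 9 sensors called lower and 1 higher.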

How the data were processed

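RNA-seq came from 8 mice, 4 control and 4 Nav-Tsc2, each with 3 technical libraries of 100 sorted GFP-positive cells. Libraries were made with a low-input kit not stated to mark strand and sequenced as single reads. The authors aligned reads to mm10 with STAR and deposited raw HTSeq counts per gene and library, without normalization. Alignments to more than 1 place, 37.5% to 42.6% of the totals, were left out of gene counts, which affects genes with near-identical copies. Reads carried no molecular identifiers, so counts alone give counting error only. The authors' deposited table of DESeq2 comparisons (fold changes and p-values with normalized values) was not used.

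Ensembl identifiers were matched to GENCODE M21 symbols (47224 of 47643). Counts of the 3 libraries were summed per mouse, filtered with filterByExpr (17178 genes left), scaled by TMM and tested in R 4.3.3 with edgeR 4.0.16 (quasi-likelihood F-test, adjusted by Benjamini-Hochberg over all genes tested). The SE of a fold change was taken as its size over the square root of F. Libraries were scaled in the same way for library values, and likeness used Pearson's r of log2(CPM + 1). The labels do not say whether mice were processed on separate days, so p-values measure the spread between these 8 mice. Deviations from the genotype mean of mice with the same replicate number correlated over 8445 genes at 0.184, 0.185, 0.108 and 0.199. Mice with unlike numbers were not compared and the same numbers also share a sex, so these values do not establish a pairing. The main fit had no pairing term, and a block for the replicate number was an alternative. Alternatives were DESeq2 1.42.0, its size factors, no filter, a covariate for sex, a replicate block, limma 3.58.1 with voom on the single libraries, no fold limit, leaving out each mouse, and, added after seeing the data, leaving out 1 control library. The tests were checked on simulated counts.

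The 10 genes and the lists of partners, calcium sensors and markers were chosen with earlier results of these data known. Named genes were fixed by rule: the 10 genes, Tsc2, called family genes and the 2 most abundant others, called partners with Scn10a, Ahnak and Trpa1, the 3 called calcium sensors with the smallest p in each direction, the 3 genes most like each gene, and the 2 highest genes of each marker list with those at 0. A few marker genes covered by the rule are not reported here. Other names were chosen after their values were seen.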

Additional observations from a re-analysis of the deposited data

Results flagged for a closer look

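S100a10 in Nav-Tsc2 replicate 4, at 1118 CPM, stood apart from the other 3 Nav-Tsc2 mice, which had 1002, 1008 and 1011 CPM. The gap took 0.923 of the range of the group, above Dixon's critical value for 4 samples. S100g in the same mouse had 6.97 CPM against 3.31, 3.43 and 3.52 CPM in the others, a gap of 0.943 of the range. These were 2 of 28 groups of 4 mice examined, and chance alone gives about 1.4 such groups. Without Nav-Tsc2 replicate 4, S100a10 was still not called and S100g was still called higher.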

How the results depend on the processing

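The calls of S100a1, S100a11, S100a16 and S100b, and the lack of a call for S100a4, S100a10, S100a13 and Anxa2, held under all 15 refits. The replicate block gave 2 of the 10 genes lower and 4 higher, the same counts as the fit without it, and it changed no other call of a named gene. Leaving out library A of the third control mouse also gave 2 lower and 4 higher. The calcium sensors called higher numbered 1, against 4 when the 24 libraries were fitted singly with a random mouse effect (Pvalb, Hpca and Kcnip2 added), 3 with DESeq2, 2 without a limit on the fold change and 1 to 2 when 1 mouse was left out. Of the 10 genes, those different between the sexes numbered 0, against 3 without the filter on low counts. A genotype by sex interaction was called for 0 of the 10, against 1 with DESeq2 and 2 without the filter on low counts. Shares of all genes called for sex or interaction under these alternatives are not given here. Vsnl1, the lower calcium sensor with the largest fold change, lost its call in 7 of 15 refits, 6 of which left out 1 mouse. The cause of these changes was not tested. Genes under about 1 CPM rest on few counts in single libraries, and an interaction rests on 2 mice per genotype and sex.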

Other observations

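Of the other family genes, 6 did not pass the filter on low counts. Over the 24 libraries Anxa10 had 23 counts, Anxa13 14, S100a14 24, S100a2 6, S100z 5 and S100a9 0. Anxa8 and Anxa9 passed it at low level, with means of 0.189 and 0.661 CPM for Anxa8 and 0.365 and 1.18 CPM for Anxa9 in control and Nav-Tsc2 mice, and neither was called. Anxa4, which had means of 91.9 ± 13 and 78.1 ± 32.3 CPM (SD, n = 4 mice) in control and Nav-Tsc2 mice, differed more among Nav-Tsc2 mice than between genotypes, with 50.3, 61.6, 76.6 and 124 CPM in replicates 1 to 4. These genes were chosen after their values were seen.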
